A study of Mus musculus with 12 samples.

Results

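Pre-mRNA splicing factor genes were examined as a group: all genes whose symbol starts with Srsf, Snrp, Snrn, Sf3, Hnrnp, Prpf, U2af, or Rbm or Lsm followed by a digit, and that stand in both of the authors' deposited tables of RNA polymerase II (Pol II) comparisons. The rule found 70 of the 6429 genes in the tables. Of these, 69 code for proteins and 1, Rbm3os, is a non-coding gene antisense to Rbm3. In RefSeq 138 mouse symbols match the rule, and the other 68, 58 of them protein-coding and among them Srsf10, Sf3b3, Prpf19 and Snrnp200, were not analysed here. The rule goes by names: some Rbm and LSm proteins have main roles outside splicing, so the families are given separately.

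Pol II was mapped by chromatin immunoprecipitation and sequencing (ChIP-seq) in epithelium of the mouse duodenum. The 3 groups were villus cells of wild-type (WT) mice, crypt cells of WT mice, and villus cells of mice labelled Hnf4 alpha and gamma DKO, a double knockout of 2 related transcription factors of the gut epithelium, each with 3 Pol II libraries and 1 input. DKO mice received tamoxifen at 50 mg per kg per day for 2 days and were taken 1 day after the last dose, and WT mice received the oil vehicle alone. Tissue was held in EDTA for 25 minutes for mutant and 35 minutes for WT mice, and a 70 µm filter held back villi and let crypts through. Genotype, tamoxifen and EDTA time therefore cannot be told apart in the comparison of WT with DKO villus. The labels used here do not name the promoter that drives the Cre, the deleted exons or the animals' ages, and crypts of DKO mice are not among the groups.

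Introns are removed from pre-mRNA by the spliceosome, which assembles on each intron from small nuclear ribonucleoproteins (snRNPs): U1 binds the start of the intron, U2 with U2AF and the SF3 complexes binds near its end, and the U4/U6.U5 tri-snRNP then joins. Serine- and arginine-rich (SR) proteins and heterogeneous nuclear ribonucleoproteins (hnRNPs) bind exons and introns and steer which sites are used. In the intestine, crypts hold the stem and dividing cells, and villi hold differentiated cells, mostly absorptive enterocytes. Pol II on a gene reports polymerase bound to it, not the amount of RNA or protein made.

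The labels were first checked against marker and target genes in the authors' deposited tables. Of the 15 enterocyte markers listed, 14 were in the tables, and all 14 had more Pol II in WT villus than in crypt and more in WT villus than in the villi labelled DKO, with median log2 fold changes of 1.44 and 2.38. Of 15 stem cell and proliferation markers 5 were in the tables. All 5 were lower in WT villus than in crypt (median -0.68), and 3 were lower in WT villus than in the villi labelled DKO (median of the 5, -0.62). Of 12 secretory markers 7 were in the tables, with 4 higher and 2 lower in villus than crypt and 3 lower in WT than DKO villi. Of 10 immune markers only Cd74 and H2-Ab1 were in the tables, both higher in WT villus in both comparisons, and of 9 mesenchymal markers none was. Hnf4a and Hnf4g went against the knockout label: Pol II was higher in the villi labelled DKO, by log2 fold changes of WT over DKO of -0.54 ± 0.14 (DESeq2 adjusted p = 4.84e-04) and -1.45 ± 0.22 (adjusted p = 7.81e-10). Reads outside a deleted part do not check a deletion, so these villi are called "labelled DKO" throughout.

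Each value below comes from the authors' deposited tables. The mean signal is the mean over libraries of counts divided by size factors, ± gives the standard error of a log2 fold change, and a gene is said to be higher or lower, or to have passed, when its Benjamini-Hochberg adjusted p over the 6429 genes was under 0.05. Values of single libraries could not be matched to samples, so a mean for each group was rebuilt from the mean signal and the 2 fold changes, assuming equal group sizes, and carries no replicate error of its own. Mean signal of the 70 genes ran from 31.4 at Lsm10 to 1520 at Rbm47 with a median of 161, against a median of 144 over all genes. Which window was counted is not stated, so these levels may depend on gene length. Differences between groups are read only within 1 gene, and levels of different genes are set side by side only to describe signal and precision.

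Promoters of 5 members are printed to show the start sites of the genes on which the results turn: Srsf2 and Srsf5, the SR protein genes that were higher in WT villus; Srsf3, an SR protein gene that was lower; and U2af1 and Hnrnpd, lower in WT villus in both comparisons and with no other gene overlapping their windows. Each line gives the 250 bases before the RefSeq start in GRCm38.p6, 5′ to 3′ on the gene's strand. Capitals mark matches on either strand to the TATA box letters TATAAA, to the CCAAT box, which reads ATTGG on the other strand, to the letters CCGGAAG bound by ETS factors, which read CTTCCGG on the other strand, and to the palindromic E-box CACGTG. The intervals are chr11:116853095-116853344 (minus strand) for Srsf2, chr17:29032410-29032659 (plus) for Srsf3, chr12:80945249-80945498 (plus) for Srsf5, chr17:31658755-31659004 (minus; 1 of 2 RefSeq promoters) for U2af1 and chr5:99978939-99979188 (minus) for Hnrnpd.
Srsf2: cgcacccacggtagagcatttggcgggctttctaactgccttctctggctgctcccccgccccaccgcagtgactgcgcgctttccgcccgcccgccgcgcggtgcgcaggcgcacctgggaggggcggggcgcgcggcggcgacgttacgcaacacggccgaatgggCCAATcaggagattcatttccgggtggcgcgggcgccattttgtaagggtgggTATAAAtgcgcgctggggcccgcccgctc
Srsf5: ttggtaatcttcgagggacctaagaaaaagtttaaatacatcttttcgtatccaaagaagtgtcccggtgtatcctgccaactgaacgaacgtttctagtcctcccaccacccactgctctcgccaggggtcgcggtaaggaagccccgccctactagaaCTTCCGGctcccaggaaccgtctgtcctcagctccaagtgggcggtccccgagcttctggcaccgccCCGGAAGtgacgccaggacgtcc
Srsf3: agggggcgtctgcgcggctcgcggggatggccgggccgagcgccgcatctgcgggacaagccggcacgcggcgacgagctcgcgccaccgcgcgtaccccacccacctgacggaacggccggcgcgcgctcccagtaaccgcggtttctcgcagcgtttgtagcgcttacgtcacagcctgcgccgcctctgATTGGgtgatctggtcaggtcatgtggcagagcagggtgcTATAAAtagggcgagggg
U2af1: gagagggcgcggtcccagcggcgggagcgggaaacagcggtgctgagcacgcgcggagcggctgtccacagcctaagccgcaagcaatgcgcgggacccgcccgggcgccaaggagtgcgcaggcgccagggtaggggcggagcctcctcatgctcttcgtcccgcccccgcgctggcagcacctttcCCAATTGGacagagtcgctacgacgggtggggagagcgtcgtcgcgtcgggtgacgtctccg
Hnrnpd: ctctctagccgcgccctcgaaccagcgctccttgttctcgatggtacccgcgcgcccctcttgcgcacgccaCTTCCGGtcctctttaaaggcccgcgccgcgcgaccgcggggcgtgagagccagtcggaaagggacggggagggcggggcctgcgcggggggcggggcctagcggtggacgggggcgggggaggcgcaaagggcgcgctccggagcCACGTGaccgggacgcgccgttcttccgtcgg

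Srsf2 had TATAAA beginning 29 bases and CCAAT 82 bases before its start, and Srsf3 had TATAAA 18 bases and ATTGG 58 bases before it. Srsf5 had no TATAAA in this stretch and had ETS cores 90 and 23 bases before its start. U2af1 had CCAAT and ATTGG, which overlap, 62 and 59 bases before its start. Hnrnpd had an ETS core 178 bases and an E-box 32 bases before its start. Among the SR protein genes shown, the TATA and CCAAT pair was present both at Srsf2, which was higher in WT villus than in the villi labelled DKO, and at Srsf3, which was lower. A match is a run of letters and not a measured site.

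Against crypt, splicing factor genes that passed were nearly all lower in WT villus. Of the 70 genes, 33 (47.1%) were lower in villus, 2 were higher (Srsf5 and Rbm47) and 35 did not pass. Among all genes, the authors' deposited table had 18.8% lower and 18.6% higher. The median log2 fold change of the 70 genes was -0.30 (quartiles -0.45 and -0.13), a 1.23-fold lower signal, against -0.04 (quartiles -0.24 and 0.23) over all genes. It ran from -0.80 at Hnrnpa1 to 0.55 at Srsf5, and 59 of the 70 values were negative, beside 3512 of the 6429 over all genes. Changes were small: no member moved by more than 1 on the log2 scale, where 285 of all 6429 genes did. Each library holds many cells, so a shift in the mix of cells and a change of Pol II per cell cannot be told apart, and the marker genes above moved with the same groups; their part in these results was not tested.

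Between the villi, the splicing factor genes that passed had less Pol II in WT than in the villi labelled DKO, apart from Srsf2 and Srsf5. Of the 70 genes, 37 (52.9%) were lower in WT villus, 2 were higher and 31 did not pass, where 29.5% of all genes in the authors' deposited table were lower and 22.4% were higher. The median was -0.30 (quartiles -0.44 and -0.13), against -0.08 over all genes, with a range from -1.25 at Hnrnpa3 to 0.69 at Srsf2. Of the 70 values 59 were negative, beside 3660 of the 6429 over all genes. With each table centred on its all-gene median, 32 members were lower and 2 higher in WT villus than crypt, where 14.8% of all genes were lower and 21.1% higher, and 29 were lower and 2 higher in WT than DKO villus, where 22.1% were lower and 26.6% higher. Both comparisons use the WT villus libraries, so a low WT villus value enters both.

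**Figure D1:**
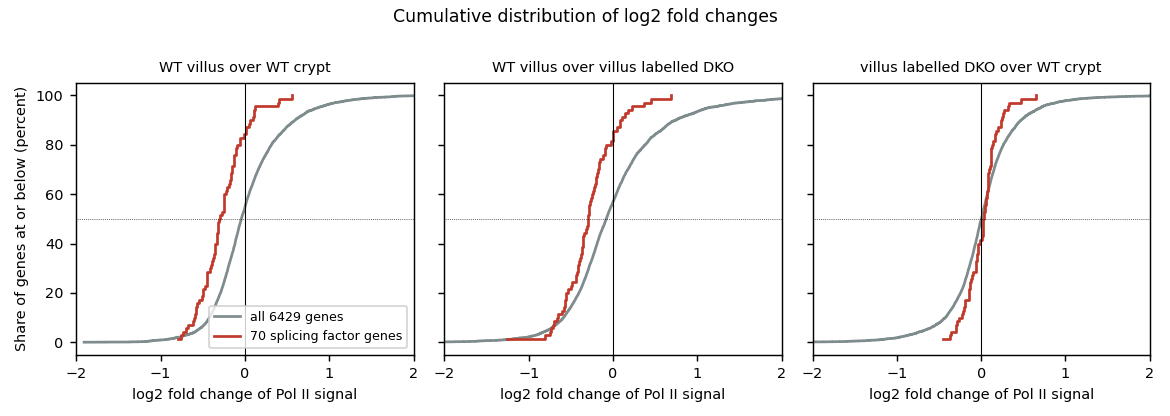
Cumulative share of genes (vertical axis) by log2 fold change (horizontal axis, drawn from -2 to 2) in the authors' deposited tables and in their difference, for the 70 splicing factor genes and all 6429 genes. The curve of the splicing factor genes lies to the left of that of all genes over most of the range in both deposited comparisons (medians -0.30 and -0.30 against -0.04 and -0.08), and for labelled DKO villus over crypt the curves cross near 0 (medians 0.03 and 0.00) with that of the splicing factor genes steeper.

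The third pair of groups, villi labelled DKO and WT crypts, was compared by subtracting the authors' deposited log2 fold changes, with the largest standard error the difference can have. These groups differ at once in villus or crypt origin, genotype, tamoxifen and EDTA time, which cannot be told apart here. No member passed this Wald test with Benjamini-Hochberg adjustment, 2 had an unadjusted p under 0.05 (Hnrnpl and Rbm48), and over all genes 6.41% were higher and 7.19% lower in the villi labelled DKO. The median over members was 0.03 (quartiles -0.11 and 0.11), against 0.00 over all genes. Of the 70 differences 69 were within 0.5 of 0 on the log2 scale, the exception being Hnrnpa3 at 0.65 ± 0.42. Over all genes 5330 of 6429 differences were within 0.5. The 95% interval lay inside ±0.5 for 31 members and inside ±1 for 68, and for the others a difference of that size lay within the interval. Intervals were not counted over all genes, so whether these counts are particular to the members was not tested. A smaller standard error was rebuilt from both deposited standard errors, with a variance term of WT villus assumed. With it 3 members passed the Wald test, where 30.1% of all genes did. These were Rbm48 at -0.35 (adjusted p = 0.00117), Hnrnpl at 0.48 (adjusted p = 0.00497) and Srsf7 at -0.45 (adjusted p = 0.0260).

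The SR proteins bind exonic enhancers through RNA recognition motifs and recruit U1 and U2AF. Of the 9 SR protein genes, 1 was higher and 3 lower in WT villus than crypt, and 2 were higher and 4 lower in WT than labelled DKO villus. As shares these are 11.1% and 33.3% against crypt, beside 18.6% and 18.8% of all genes, and 22.2% and 44.4% between the villi, beside 22.4% and 29.5%. Srsf5 (mm9 windows chr12:82046386-82050993, plus strand), had rebuilt means of 198 in crypt, 291 in WT villus and 214 in the villi labelled DKO, so WT villus was above both other groups. Its deposited log2 fold changes were 0.55 ± 0.15 over crypt (DESeq2 adjusted p = 7.53e-04) and 0.45 ± 0.14 over labelled DKO villus (adjusted p = 0.00488). The windows of Srsf5 overlap those of the gene model Gm20337, and their reads cannot be separated.

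Srsf2 encodes SC35, a component of nuclear speckles, and its windows lie at mm9 chr11:116710711-116714758 on the minus strand. Its rebuilt means were 411 in crypt, 540 in WT villus and 336 in the villi labelled DKO. WT villus again held the highest value, but only the difference from labelled DKO villus passed, at 0.69 ± 0.21 (DESeq2 adjusted p = 0.00361), while that from crypt was 0.40 ± 0.21 (adjusted p = 0.134). Srsf3, the smallest SR protein and an export adaptor, went the other way, with 325 in crypt, 237 in WT villus and 353 in the villi labelled DKO. WT villus was the low group, at -0.45 ± 0.16 against crypt (adjusted p = 0.0154) and -0.57 ± 0.16 against labelled DKO villus (adjusted p = 9.68e-04). Srsf7 had 478 in crypt and 350 and 349 in the WT and labelled DKO villi, so the rebuilt means of both kinds of villus lay under that of crypt. It was -0.45 ± 0.17 in WT villus against crypt (adjusted p = 0.0227) and 0.00 ± 0.17 between the villi (adjusted p = 0.988), while labelled DKO villus over crypt, at -0.45 ± 0.24, did not pass with the largest standard error (adjusted p = 0.218).

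Srsf4 was lower in WT villus by small amounts with a small error, -0.35 ± 0.08 against crypt (DESeq2 adjusted p = 2.33e-05) and -0.21 ± 0.07 against labelled DKO villus (adjusted p = 0.0110). Srsf11 and Srsf9 passed in the deposited comparison of the villi alone, at -0.38 ± 0.14 and -0.42 ± 0.15 there and -0.33 ± 0.14 and -0.17 ± 0.15 against crypt. Srsf1, the founding member of the family, and Srsf6 passed in neither, with values of -0.25 ± 0.18 and -0.36 ± 0.19 against crypt and -0.37 ± 0.17 and -0.17 ± 0.19 between the villi.

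**Figure D2:**
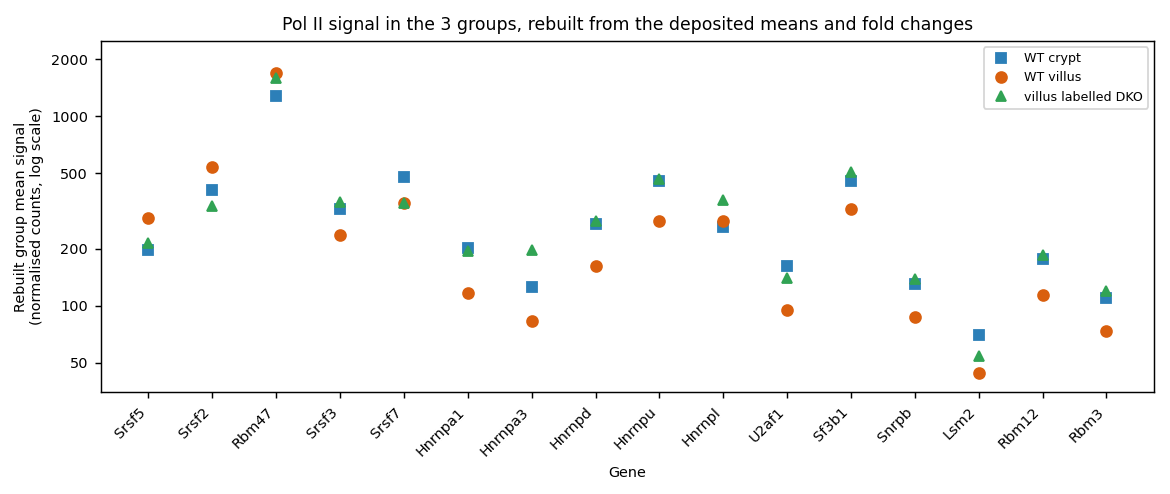
Rebuilt mean Pol II signal (size-factor-normalised counts, log axis) in WT crypt (squares), WT villus (circles) and the villi labelled DKO (triangles) for 16 splicing factor genes (horizontal axis). The points are rebuilt from the authors' deposited tables and have no error bars. Srsf5 and Srsf2 peak in WT villus, Rbm47 is lowest in crypt, and Hnrnpd, U2af1 and Sf3b1 have their lowest point in WT villus.

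The hnRNP proteins coat nascent RNA and often silence splice sites. None of the 18 hnRNP genes was higher in WT villus in either of the authors' deposited tables, 8 (44.4%) were lower than in crypt (median of the 18, -0.33) and 12 (66.7%) were lower than in the villi labelled DKO (median -0.40). The shares over all genes were 18.8% and 29.5%, and the medians -0.04 and -0.08. Hnrnpa1, which competes with SR proteins at splice sites, had rebuilt means of 202 in crypt, 116 in WT villus and 195 in the villi labelled DKO. That is 1.74-fold and 1.67-fold lower in WT villus, or -0.80 ± 0.22 (DESeq2 adjusted p = 0.00145) and -0.74 ± 0.22 (adjusted p = 0.00205). Its windows, on the plus strand at mm9 chr15:103070728-103076629, overlap the gene model Gm10052.

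Hnrnpd, or AUF1, binds AU-rich elements, and no other gene overlaps its windows at mm9 chr5:100384454-100408307 on the minus strand. Its rebuilt means were 269 in crypt, 162 in WT villus and 282 in the villi labelled DKO, with WT villus alone low. The deposited values were -0.74 ± 0.17 (DESeq2 adjusted p = 1.05e-04) and -0.80 ± 0.17 (adjusted p = 1.16e-05). Hnrnpu, a nuclear matrix protein also called SAF-A, had 455, 281 and 467 in the same order. It was -0.70 ± 0.22 against crypt (adjusted p = 0.00693) and -0.73 ± 0.22 against labelled DKO villus (adjusted p = 0.00287), and its windows overlap Cox20.

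Hnrnpa3 had the widest difference between the villi, with rebuilt means of 126 in crypt, 83.0 in WT villus and 198 in the villi labelled DKO. The deposited difference was -1.25 ± 0.29, or 2.38-fold (DESeq2 adjusted p = 7.96e-05), and against crypt it was -0.60 ± 0.29 (adjusted p = 0.0957). Its windows, at mm9 chr2:75497216-75506964 on the plus strand, overlap Gm6793, and hnRNP A1 and A3 have near copies in the genome, so both values are uncertain. How many reads such copies share was not measured, and the headers of the window tables record a mapping quality of at least 30. Hnrnpl, which binds CA repeats, was 260 in crypt, 281 in WT villus and 362 in the villi labelled DKO. WT villus was lower than the villi labelled DKO, at -0.37 ± 0.14 (adjusted p = 0.0230), and had 0.11 ± 0.15 against crypt (adjusted p = 0.593). Labelled DKO villus over crypt, at 0.48 ± 0.20, did not pass with the largest standard error (adjusted p = 0.105).

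Of the remaining hnRNP genes, Hnrnpm, Hnrnph3, Hnrnpll, Hnrnpf and Hnrnpul1 were lower in WT villus in both deposited tables, from -0.49 ± 0.13 at Hnrnpm to -0.30 ± 0.08 at Hnrnpul1 against crypt and from -0.58 ± 0.13 at Hnrnpm to -0.19 ± 0.08 at Hnrnpul1 between the villi. Hnrnpa2b1 and Hnrnpdl, the latter a close relative of Hnrnpd, passed in the comparison of the villi, at -0.56 ± 0.16 and -0.57 ± 0.14, and had -0.32 ± 0.16 and -0.24 ± 0.15 against crypt. Hnrnpk, a poly(C)-binding protein, had nearly equal rebuilt means of 246, 249 and 250. Its deposited values were 0.02 ± 0.20 and -0.01 ± 0.20. Hnrnpul2 also had values near 0 with a small error, 0.06 ± 0.09 against crypt and -0.08 ± 0.09 between the villi, while Hnrnpul1, its relative, was lower in both. The difference between these paralogs was not tested. Hnrnpc, Hnrnpa0, Hnrnpab and Hnrnph1 also passed in neither, with values from -0.35 ± 0.16 at Hnrnpc to -0.11 ± 0.15 at Hnrnph1 against crypt, and from -0.31 ± 0.15 at Hnrnph1 to 0.18 ± 0.19 at Hnrnpab between the villi.

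The U2 snRNP and its partners recognise the branch point and the 3′ splice site. Of 8 genes of the U2, SF3 and U2AF list, 4 (50.0%) were lower and none higher in WT villus in each of the authors' deposited tables: U2af1, Sf3b1, Sf3a1 and Sf3b2. Over all genes 18.8% were lower against crypt and 29.5% between the villi. U2af1 encodes the U2AF subunit that reads the AG at the end of the intron, and its windows lie at mm9 chr17:31783526-31796059 on the minus strand. Its rebuilt means were 162 in crypt, 95.5 in WT villus and 140 in the villi labelled DKO. WT villus was 1.69-fold below crypt, at -0.76 ± 0.09 (DESeq2 adjusted p = 3.74e-14), and -0.56 ± 0.09 against labelled DKO villus (adjusted p = 2.12e-08). U2af2, the partner subunit that binds the polypyrimidine tract, passed in neither, at -0.13 ± 0.09 (adjusted p = 0.258) and -0.15 ± 0.09 (adjusted p = 0.138).

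Sf3b1, the large scaffold of SF3B that holds the branch point helix, had rebuilt means of 457 in crypt, 325 in WT villus and 511 in the villi labelled DKO. It was -0.49 ± 0.12 against crypt (DESeq2 adjusted p = 1.80e-04) and -0.65 ± 0.12 between the villi (adjusted p = 1.68e-07). Sf3a1 was -0.45 ± 0.08 (adjusted p = 4.41e-08) and -0.40 ± 0.07 (adjusted p = 6.44e-07), with windows that overlap Ccdc157. Sf3b2 was -0.24 ± 0.08 and -0.29 ± 0.08 in the deposited tables. Sf3b4, Sf3a2 and U2af1l4 had lower mean signals, from 38.8 to 88.4, and values between -0.22 and 0.09, with none past the threshold.

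**Figure D3:**
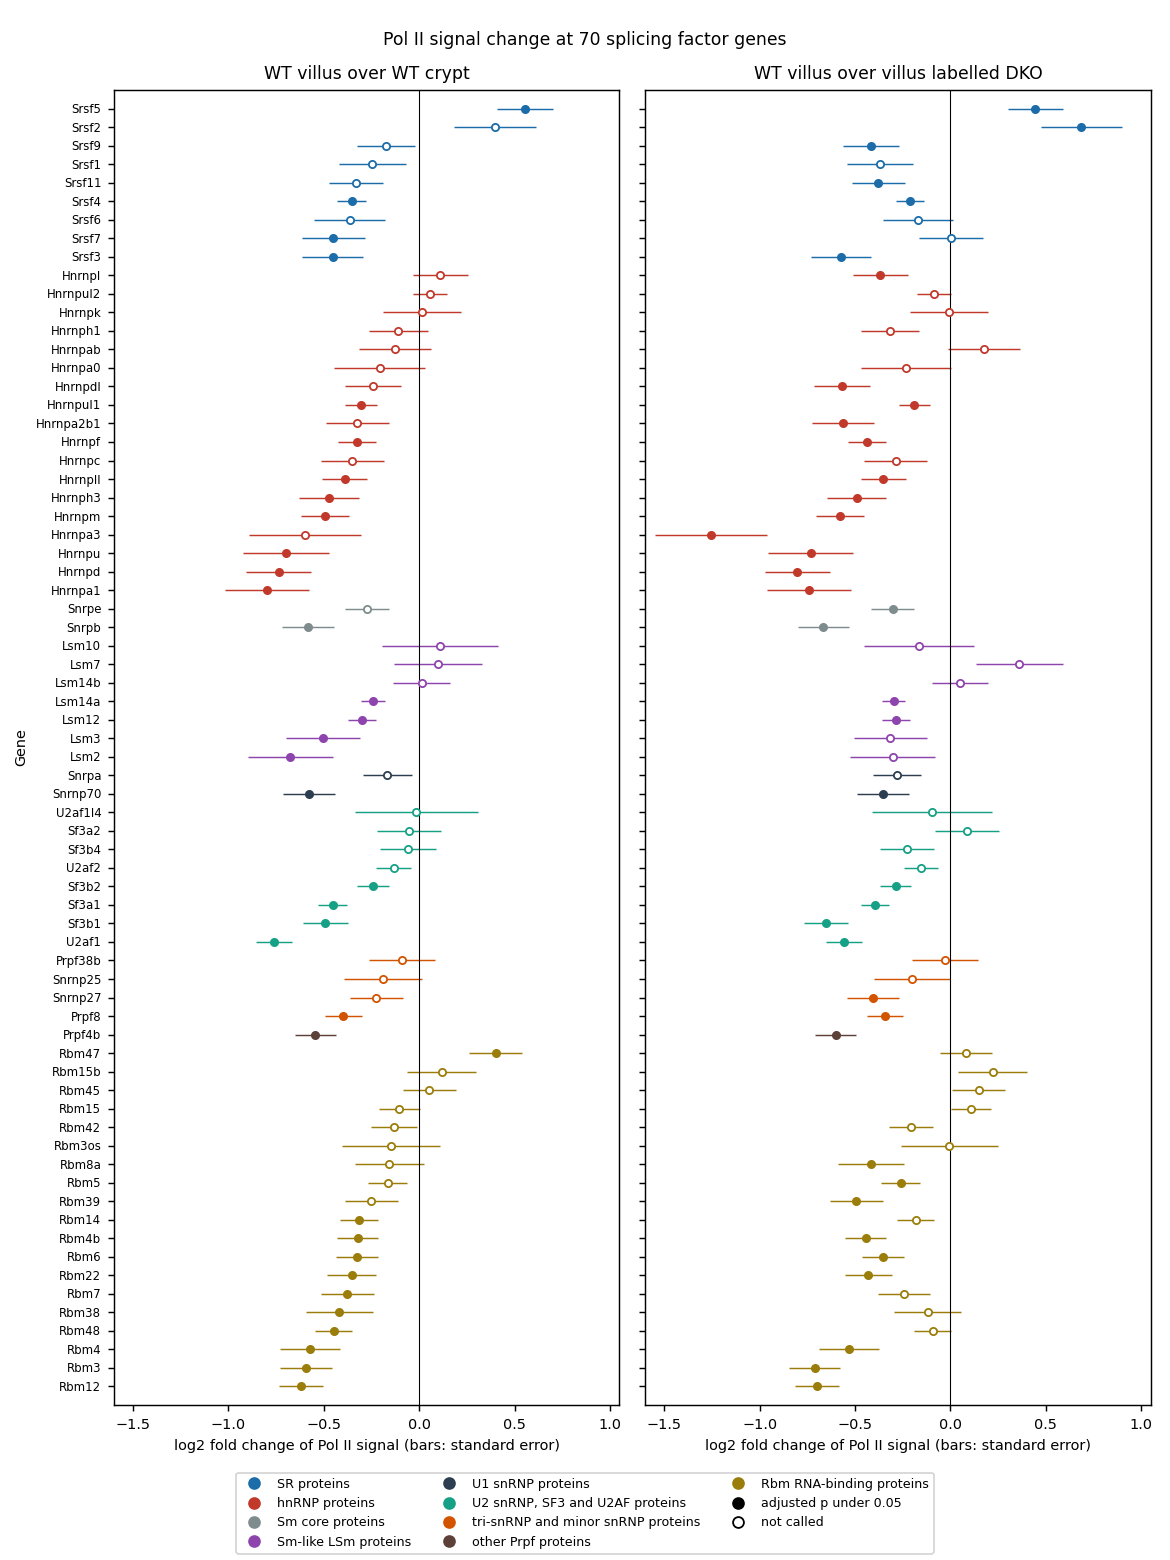
Deposited log2 fold change (horizontal axis) of each of the 70 splicing factor genes in WT villus over WT crypt and WT over labelled DKO villus, grouped by role. Bars are standard errors and filled points have an adjusted p under 0.05. Most filled points lie left of 0, and the exceptions are Srsf5 in both comparisons, Rbm47 against crypt and Srsf2 between the villi.

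The U1 snRNP opens spliceosome assembly at the 5′ splice site. Snrnp70, its core RNA-binding protein, had rebuilt means of 212 in crypt, 142 in WT villus and 182 in the villi labelled DKO, and was -0.58 ± 0.14 (DESeq2 adjusted p = 1.44e-04) and -0.35 ± 0.14 (adjusted p = 0.0203) in the deposited tables. Snrpa, a U1-specific protein, had -0.17 ± 0.13 and -0.28 ± 0.13 and passed in neither. Sm proteins form the ring around most spliceosomal snRNAs, and 2 genes of that ring were in the tables. Snrpb had 130, 86.9 and 138 in crypt, WT villus and the villi labelled DKO, with WT villus low at -0.58 ± 0.14 (adjusted p = 1.22e-04) and -0.67 ± 0.13 (adjusted p = 3.18e-06). Snrpe was -0.27 ± 0.12 against crypt (adjusted p = 0.0531) and -0.30 ± 0.11 between the villi (adjusted p = 0.0180).

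The tri-snRNP brings the catalytic RNAs, and Prpf8 is the protein at its active site. Prpf8 had 190 in crypt, 144 in WT villus and 183 in the villi labelled DKO, lower in WT villus in both deposited tables at -0.40 ± 0.10 and -0.34 ± 0.09. Prpf4b, a kinase that phosphorylates other splicing factors, had 243, 167 and 253. It was -0.54 ± 0.11 (DESeq2 adjusted p = 4.26e-06) and -0.60 ± 0.11 (adjusted p = 1.05e-07). Snrnp27 passed between the villi alone, at -0.41 ± 0.14 there and -0.22 ± 0.14 against crypt. Snrnp25, of the minor spliceosome, and Prpf38b passed in neither, with values from -0.20 to -0.03.

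LSm proteins are related to Sm proteins: LSm2 to LSm8 form the ring on U6 snRNA, LSm10 is a part of the U7 snRNP that processes histone mRNA, and LSm14A and LSm14B act on cytoplasmic mRNA. Of 7 genes 4 (57.1%, beside 18.8% of all genes) were lower in WT villus than crypt and 2 (28.6%, near the 29.5% of all genes) lower than in labelled DKO villus, and none was higher in the authors' deposited tables. Lsm2 had 70.4 in crypt, 44.1 in WT villus and 54.3 in the villi labelled DKO. It was -0.68 ± 0.22 against crypt (DESeq2 adjusted p = 0.00882) and -0.30 ± 0.22 between the villi (adjusted p = 0.251), at a mean signal of 56.3, where the standard error is wide. Lsm3, with which Lsm2 sits in the ring, was -0.50 ± 0.19 and -0.31 ± 0.19, and passed against crypt. Lsm12 and Lsm14a passed in both, at -0.30 ± 0.07 and -0.24 ± 0.06 against crypt. Lsm14b, the paralog of Lsm14a, had 0.01 ± 0.15 and 0.05 ± 0.15, and Lsm7 and Lsm10 had values between -0.17 and 0.36 with errors of 0.23 to 0.30.

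The Rbm proteins share an RNA recognition motif and are the most mixed family by function. The 19 Rbm genes include the non-coding Rbm3os. Of the 19, 1 was higher and 10 (52.6%) were lower in WT villus than crypt. Against labelled DKO villus 9 (47.4%) were lower in WT villus and none was higher. Without the Rbm genes the remaining 51 held 1 higher and 23 lower against crypt in the authors' deposited tables. Between the villi these 51 held 2 higher and 28 lower. The shares lower were 45.1% and 54.9%. Over all genes 18.8% were lower and 18.6% higher against crypt, and 29.5% lower and 22.4% higher between the villi. Rbm47, an epithelial RNA-binding protein and cofactor of apolipoprotein B mRNA editing, was the only Rbm gene higher in villus than crypt. Its rebuilt means were 1279 in crypt, 1688 in WT villus and 1594 in the villi labelled DKO, with crypt the lowest of the 3. WT villus was 0.40 ± 0.14 over crypt (DESeq2 adjusted p = 0.0127) and 0.08 ± 0.14 over labelled DKO villus (adjusted p = 0.635). Labelled DKO villus over crypt, at 0.32 ± 0.19, did not pass (adjusted p = 0.323 with the largest and 0.0656 with the rebuilt standard error). Its windows lie at mm9 chr5:66407288-66543543 on the minus strand.

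Rbm12 had 176 in crypt, 114 in WT villus and 186 in the villi labelled DKO, at -0.62 ± 0.12 (DESeq2 adjusted p = 1.26e-06) and -0.70 ± 0.11 (adjusted p = 9.12e-09), and its windows overlap those of Cpne1. Rbm3, a cold-induced RNA-binding protein, had 111, 73.3 and 120, at -0.60 ± 0.14 (adjusted p = 9.00e-05) and -0.71 ± 0.13 (adjusted p = 6.48e-07). Rbm3os, its antisense neighbour with partly shared windows, had -0.15 ± 0.26 and -0.01 ± 0.25, and ChIP-seq reads carry no strand, so shared reads cannot be assigned to 1 of the 2 genes. Rbm48, a minor spliceosome protein, had 145 in crypt and 107 and 114 in the WT and labelled DKO villi. It was -0.45 ± 0.10 against crypt (adjusted p = 3.68e-05) and -0.09 ± 0.10 between the villi (adjusted p = 0.435). Labelled DKO villus over crypt, at -0.35 ± 0.14, did not pass with the largest standard error (adjusted p = 0.0662).

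Rbm4, Rbm4b and Rbm14 lie close together on chromosome 19 and share overlap with the gene model Gm21992, so they are not 3 independent results. They were -0.57 ± 0.16, -0.32 ± 0.11 and -0.32 ± 0.10 against crypt in the authors' deposited table, and all 3 passed. Between the villi Rbm4 and Rbm4b passed, at -0.53 ± 0.16 and -0.44 ± 0.11, and Rbm14 did not, at -0.18 ± 0.10. Rbm22, a protein of the activated spliceosome, and Rbm6 were lower in both comparisons, at -0.35 ± 0.13 and -0.33 ± 0.11 against crypt and -0.43 ± 0.12 and -0.35 ± 0.11 between the villi. Rbm39, a U2AF-related factor, Rbm5 and Rbm8a, the Y14 subunit of the exon junction complex, passed between the villi alone, at -0.49 ± 0.14, -0.26 ± 0.10 and -0.41 ± 0.17. Rbm7 and Rbm38 passed against crypt alone, at -0.38 ± 0.14 and -0.42 ± 0.18. Rbm15, Rbm15b, Rbm42 and Rbm45 passed in neither, and Rbm15 and its paralog Rbm15b, both of the m6A methyltransferase complex, had 0.11 ± 0.11 and 0.22 ± 0.18 between the villi.

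**Figure D4:**
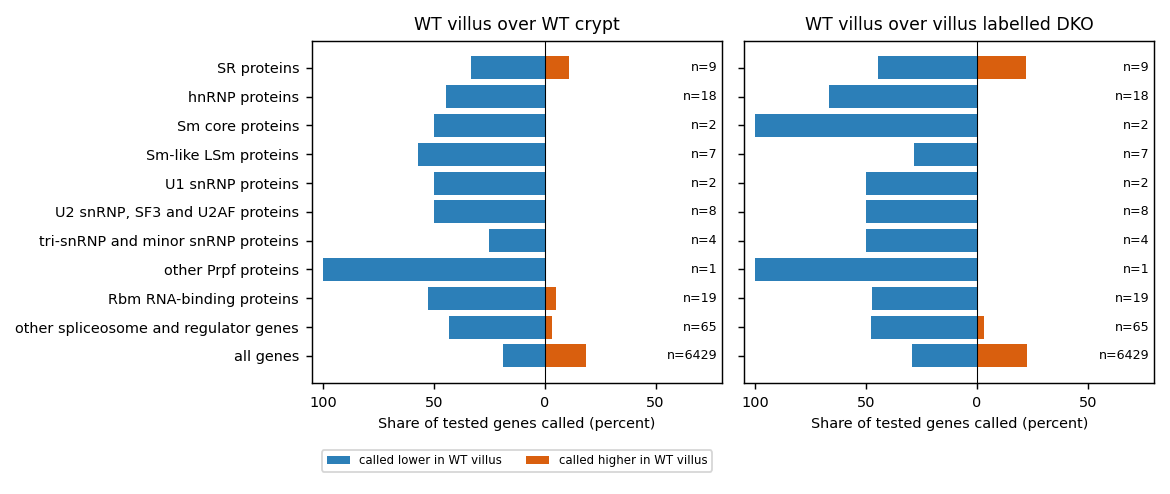
Share of the genes of each role list, of the listed other splicing genes and of all genes (bars, percent) that were lower in WT villus (left of 0) or higher (right of 0) at an adjusted p under 0.05, against WT crypt and against the villi labelled DKO, with the number of genes at the right. Lower genes outnumber higher ones in every splicing list, and the hnRNP list has 8 and 12 lower of 18 with none higher.

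Other spliceosome and splicing regulator genes, 109 by name, were listed apart from the members, and 65 were in the tables. Of the 65, 28 were lower and 2 higher in WT villus than crypt (median -0.23), and 31 lower and 2 higher than in the villi labelled DKO (median -0.25) in the authors' deposited tables. The shares lower were 43.1% and 47.7%, beside 18.8% and 29.5% of all genes, whose medians were -0.04 and -0.08. The lowest against crypt were Dhx9, an RNA helicase, at -0.72 ± 0.14 (DESeq2 adjusted p = 4.55e-06), Tardbp, which encodes TDP-43, at -0.66 ± 0.15 (adjusted p = 5.20e-05), and Ddx39b at -0.62 ± 0.08 (adjusted p = 1.36e-12). Ddx5 and Smndc1 were higher, at 0.35 ± 0.13 and 0.30 ± 0.13. Between the villi the lowest were Ybx1 at -0.95 ± 0.13, Tardbp at -0.71 ± 0.15 and Ewsr1 at -0.62 ± 0.15, and Cherp and Smndc1 were higher at 0.31 ± 0.13 and 0.29 ± 0.12. In the villi labelled DKO against crypt 3 of the 65 (4.62%, under the 6.41% of all genes) were higher and none lower: Bud31 at 0.54 ± 0.18 (adjusted p = 0.0267), Ybx1 at 0.53 ± 0.18 (adjusted p = 0.0323) and Mbnl2 at 0.42 ± 0.10 (adjusted p = 3.01e-04).

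Where the members lie bears on what was counted. Windows of 27 of the 70 genes (38.6%) overlapped a window of another gene, against 41.2% of the 6394 genes with a position, and for promoter-proximal windows it was 19 genes (27.1%) against 16.2%. In the 43 members with no overlap 18 were lower and 1 higher against crypt, where 17.9% of all genes with no overlap were lower and 21.2% higher. Between the villi 23 were lower and 1 higher, where 29.3% were lower and 25.3% higher. The 35 genes with gene body windows over the members' median length held 23 of the genes that were lower against crypt and 26 of those lower between the villi, and the shorter 35 held 10 and 11. By mean signal, the upper 35 held 22 and 25, and the lower 35 held 11 and 12. All genes were not split by length or signal in this way, so whether these counts are particular to the members was not tested. With the tables restricted to a mean signal of at least 100, 23.2% of all genes were lower against crypt and 35.1% between the villi. Without that limit the shares were 18.8% and 29.5%. How length, signal and precision relate to each other was not tested, nor was their part in the calls.

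The deposited windows also differ by strand. For all 21190 minus-strand transcripts with both windows the promoter-proximal window lay inside the gene body window, and for none of the 19858 plus-strand transcripts did it. Which window the authors' deposited tables rest on is not stated. Of 40 minus-strand members 21 were lower against crypt (median -0.31) and 24 between the villi (median -0.29), and of 30 plus-strand members 12 and 13 were lower (medians -0.22 and -0.31). Over all genes 20.6% on the minus and 16.8% on the plus strand were lower against crypt, and 29.9% and 29.2% between the villi. Medians were negative on both strands in both comparisons, and the difference between strands was not tested.

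Promoter sequences from RefSeq, from 250 bases before to 50 after the start in GRCm38.p6, were matched for 61 of the 70 genes and gave 81 promoters, beside 6589 promoters of 5161 genes of the tables. Members had a median of 26 CpG dinucleotides and 62.7% GC, against 20 and 60.7% over all. Motifs were searched on both strands. TATAAA was in 8.64% of members' promoters and 8.12% of all, CCAAT in 45.7% and 37.8%, CCGGAAG, an ETS core, in 24.7% and 18.5%, and GGGCGG, an Sp1 core, in 66.7% and 62.1%. GCATGCGC, an NRF1 core, was in 9.88% and 5.18%, AAGATGGC, a YY1 core, in 9.88% and 4.42%, and TCTCGCGA, a ZBTB33 core, in 7.41% (6 promoters) and 2.29%. CACGTG was in 9.88% and 9.73%, and CAAAGTCC, an HNF4 core, in 1.23% (1 promoter, of Prpf38b) and 1.76%. In the shorter stretch from 100 bases before to 50 after the start, TCTCGCGA was in 2.47% (2 promoters) and 1.62%, GGGCGG in 51.9% and 51.6%, CCAAT in 38.3% and 24.9%, and CAAAGTCC in 0 of the members' promoters and 0.820% of all. Promoters of 1 gene can overlap and share a match, and these shares describe the sequences and were not tested.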

How the data were processed

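Pol II ChIP-seq was made in 3 libraries each of WT villus, WT crypt and labelled DKO villus. The build mm9 and the tools Bowtie2 2.2.6, featureCounts and DESeq2 1.36.0 are named, per the submitters' processing notes. The 2 tables deposited by the authors hold 6429 genes. Per the file headers the deposited values of each gene are its mean signal over libraries, as counts scaled by size factors, the log2 fold change with its log2 standard error, the Wald score, and the p-value before and after adjustment. These comparisons were taken as deposited, and the window counted, the gene filter and any shrinkage are not stated. Mean signal was identical in both tables for all 6429 genes, so the fits shared libraries. The deposited window tables hold 18 columns of per-library counts without names. These were matched to no sample and not used, so depth per library is not known here, and only window positions were read (402 bp promoter-proximal, gene body of at least 1001 bp).

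Group means and the difference of labelled DKO villus and crypt were computed from the deposited values with Python 3.11.15, pandas 2.3.3, numpy 2.4.6 and scipy 1.17.1, and figures with matplotlib 3.10.9. The largest standard error of that difference is the root of the summed squares and assumes independent library errors. The rebuilt standard error takes each group's variance as a first term over the group mean plus a second term equal in all groups. The first term of WT villus was not estimated and was set to the mean of those of crypt and labelled DKO villus. Both standard errors were run on simulated data. These data were drawn from the same variance model and so cannot test it. RefSeq gene tables gave names and promoters. The labels do not say that libraries came from separate mice, so p-values measure only the spread between these libraries, which may be technical.

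The members, role lists and pathway list were chosen with earlier results of these data known. Any member could be named by role, with full values for the up to 6 called members with the largest change in each direction and the 3 such pathway genes. No set test was run. Alternatives were a stricter adjusted p, a minimum change, centring, a minimum mean signal, leaving out overlapping genes or the Rbm genes, another standard error and a shorter promoter window.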

Additional observations from a re-analysis of the deposited data

How the results depend on the processing

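No result changed direction under any alternative. Of the 70 splicing factor genes, those past an adjusted p under 0.01 numbered 25 in villus over crypt and 30 in WT over labelled DKO villus, where 27.0% and 40.9% of all genes passed, and centring left 34 and 31 (all genes 35.9% and 48.7%). Restricting the tables to a mean signal of at least 100 left 33 and 37 of 53 (all genes 47.0% and 61.6%). Leaving out the Rbm genes left 24 and 30 of 51 (all genes 37.4% and 51.9%). Calls with a change over 1 on the log2 scale came to 0 against crypt and 1 (Hnrnpa3) between the villi (all genes 4.43% and 8.69%). A test against changes up to 0.5 gave 0 and 0 (all genes 3.92% and 9.91%). With no overlapping gene 19 and 24 of 43 passed (all genes 39.1% and 54.6%), since fewer genes were tested. These totals count both directions, and several are near or under the share of all genes. For labelled DKO villus over crypt the rebuilt standard error gave 3 members (all genes 30.1%) in place of 0 (all genes 13.6%). Of the 65 pathway list genes, 16 passed at an adjusted p under 0.01 against crypt and 0 with a change over 1. Against changes up to 0.5 the count was 0, and of those with no overlapping gene 15 passed. The shares over all genes were 27.0%, 4.43%, 3.92% and 39.1% in that order. Between the villi 0 passed over 1, 1 against changes up to 0.5 and 16 with no overlap (all genes 8.69%, 9.91% and 54.6%). For labelled DKO villus over crypt 1 passed at the stricter adjusted p, 0 over 1 and 0 against changes up to 0.5. With the rebuilt standard error 8 passed. There the shares over all genes were 8.68%, 3.47%, 1.40% and 30.1%. No paired analysis was possible because the columns of single libraries carry no names. For the same reason leaving out each library and a count test with edgeR were not run. Genes with low mean signal have wide standard errors, so small changes there were not detectable.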
